A study of Mus musculus with 2 samples.

Results

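Apolipoproteins are the protein part of the particles that carry lipid in blood, and Mttp, the microsomal triglyceride transfer protein, loads lipid onto one of them. The genes described here are Apoa1, Apoa2, Apoa4, Apoa5, Apob, Apoc1, Apoe, Apom, Apof and Mttp, chosen by name. Every probe set whose annotation gives exactly 1 of these symbols was taken, which found all 10 genes on 17 probe sets, of 18193 genes and 45101 probe sets in all. The brightest probe set (by its mean) stands for a gene, and the others are given beside it. Of the 10 genes, 5 have 1 probe set and 5 have more, and 0 probe sets with several symbols hold any of them.

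Livers came from untreated wild-type mice (Yap+/+) and from mice heterozygous for Yap (Yap+/-), both at postnatal day 30. The Yap+/- line had been bred on C57BL/6 for at least 6 generations, and C57BL/6 is the strain given for both groups. YAP, encoded by Yap1, is the co-activator that the Hippo pathway restrains, and the heterozygotes retain 1 working copy. Per genotype, the livers of 5 mice were pooled and the pool was measured on 1 array of 3-prime probe sets. Every value is therefore a single measurement, and no difference between genotypes could be tested. Neither the sex nor the feeding of the mice is stated in the sources used here.

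Hepatocytes secrete triglyceride as very low density lipoprotein (VLDL), in which each particle holds 1 apoB molecule that Mttp has lipidated in the endoplasmic reticulum. High density lipoprotein (HDL) is built on apoA-I, which takes up phospholipid and cholesterol outside the cell. Smaller apolipoproteins move between particles and set how fast lipases and receptors act on them. Several of these genes sit side by side in the genome, with Apoa1, Apoc3, Apoa4 and Apoa5 in 1 cluster and Apoe, Apoc1, Apoc4 and Apoc2 in another.

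The promoters of Apoa1, Apoa4 and Apoa5 are shown because these neighbours gave unlike differences between the genotypes, and that of Apob because it encodes the core protein of VLDL. The sequences are RefSeq's, build GRCm38.p6, all on the plus strand, and each is the 250 bases before the annotated start, 5′ to 3′. They lie at chr9:46228380-46228629 (Apoa1), chr9:46240594-46240843 (Apoa4), chr9:46268358-46268607 (Apoa5, the upstream of its listed starts) and chr12:7977427-7977676 (Apob). Capitals mark matches, on either strand, to the letters TATAAA of the core promoter box, to the HNF4-type letters CAAAGNNCA, to the forkhead-type letters TGTTTNC, to the TEAD-type letters GGAATG (the element that YAP's partners bind) or to the E-box, CACGTG.
Apoa1: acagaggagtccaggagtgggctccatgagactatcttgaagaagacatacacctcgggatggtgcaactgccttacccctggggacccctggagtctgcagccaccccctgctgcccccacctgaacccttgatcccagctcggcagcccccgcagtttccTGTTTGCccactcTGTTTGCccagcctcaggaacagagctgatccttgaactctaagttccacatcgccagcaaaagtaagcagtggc
Apoa4: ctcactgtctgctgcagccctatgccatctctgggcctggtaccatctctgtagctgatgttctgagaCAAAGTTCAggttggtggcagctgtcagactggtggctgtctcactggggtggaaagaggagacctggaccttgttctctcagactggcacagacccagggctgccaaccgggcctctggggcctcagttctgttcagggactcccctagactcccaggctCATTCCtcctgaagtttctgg
Apoa5: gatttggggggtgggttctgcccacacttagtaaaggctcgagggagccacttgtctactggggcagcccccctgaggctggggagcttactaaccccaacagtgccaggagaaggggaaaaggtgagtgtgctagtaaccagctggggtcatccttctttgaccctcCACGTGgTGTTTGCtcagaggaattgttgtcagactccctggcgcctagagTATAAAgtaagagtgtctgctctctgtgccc
Apob: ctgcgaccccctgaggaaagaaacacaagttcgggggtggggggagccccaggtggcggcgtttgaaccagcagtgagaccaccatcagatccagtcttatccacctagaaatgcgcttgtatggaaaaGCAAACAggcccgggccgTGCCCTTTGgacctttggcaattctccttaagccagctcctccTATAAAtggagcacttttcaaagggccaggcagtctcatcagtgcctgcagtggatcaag
In these 4 windows no match overlapped another. Apoa1 held the forkhead-type letters at positions -88 to -82 and -75 to -69, counted back from the start. Apoa4 held CAAAGTTCA at -182 to -174 and, on the minus strand, the TEAD-type letters at -21 to -16. Apoa5 held the E-box letters at -82 to -77, the forkhead-type letters at -75 to -69 and the letters TATAAA at -31 to -26. Apob held the forkhead-type and HNF4-type letters on the minus strand at -121 to -115 and -103 to -95, and the letters TATAAA at -60 to -55. Of 32851 such windows over all genes, 12.4% held the TATA letters, 5.49% the HNF4-type, 17.8% the forkhead-type, 12.6% the TEAD-type and 6.02% the E-box. Each match is therefore a description of letters, and whether any is a binding site was not tested. The motifs were settled after these promoters had been searched. Windows were listed for 8 of the 10 genes, Apoc1 and Apof being named only. Among members whose promoters are not printed, a window of Apoe also held the TEAD-type letters, at -130 to -125. Those of Apoa2 and Apom held the forkhead-type letters, and Apoa2 and Apoe held TATAAA.

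Both arrays carried liver RNA by their markers. The 8 matched hepatocyte markers read between 13.3 and 15.1, and their summed linear signal was 176045 in Yap+/+ and 178422 in Yap+/-. Yap1 had values of 9.40 (Yap+/+) and 9.24 (Yap+/-), and on a second, dimmer probe set 6.01 and 5.77. In Yap+/- the excess of 3-prime over 5-prime signal of the control transcripts was larger by 0.20 to 0.22 on the log2 scale, and its part in the differences below was not tested. Genes whose log2 values average at least 6 are called measured, and all 10 members were among these 9299.

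On its brightest probe set, no member differed by 1.2-fold or more between the pools. Of the 10 members, 0 were at least 2-fold higher or lower in Yap+/-, against 0.323% of measured genes. At 1.5-fold the count was also 0 of 10, against 1.34% of measured genes, and at 1.2-fold it was 0 of 10, against 11.5%. Brighter genes spread less, with a robust SD of 0.048 at a mean of 14 or more against 0.17 at a mean from 6 to below 8. Of the 197 genes with a mean of at least 13, a limit chosen after the values were seen, 3.05% passed 1.2-fold and 0 of the 8 members in that range did. With so few members, these counts of 0 do not set them apart from the shares of all genes. The median member difference (Yap+/- minus Yap+/+, log2) was 0.0025, with 5 members higher and 5 lower on their brightest probe sets. For Apoa1, Apob and Mttp another probe set gave the other sign, as given below. The median over all measured genes was 0.00. The median absolute difference was 0.057 for the members, 0.051 for the 197 bright genes and 0.099 for all measured genes. Measured genes differed with a robust SD of 0.15, which is a spread between genes and says nothing of the spread between pools. The deposited values were quantile normalised, so an overall change in RNA amount would not show. Levels of different probe sets are not compared with each other, since probes bind with unlike strength.

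**Figure D1:**
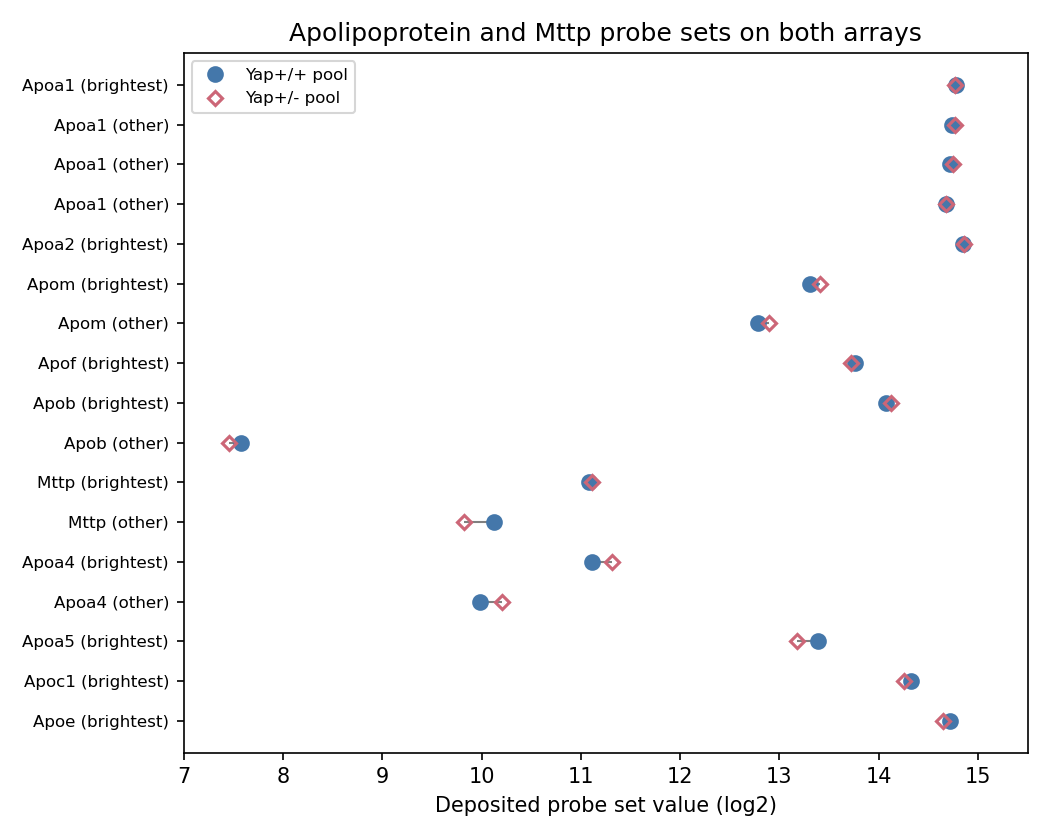
Deposited log2 value of all 17 probe sets on each array (horizontal axis), 1 row per probe set, with a filled circle for the Yap+/+ pool and an open diamond for the Yap+/- pool, 1 array each. The symbols nearly coincide for most rows, whereas both Apoa4 rows lie higher in Yap+/-, and Apoa5 and the dimmer Mttp row lie lower.

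The structural genes of HDL read almost alike on both arrays. Apoa1, which encodes the scaffold protein of HDL and the activator of the cholesterol-esterifying enzyme LCAT, read 14.78 in Yap+/+ and 14.77 in Yap+/-, a difference of -0.010. Its 3 other probe sets gave -0.0059, 0.028 and 0.026, so the sign varied between probe sets of 1 gene and the size did not exceed 0.03. Apoa2, the second main protein of HDL, read 14.85 in Yap+/+ and 14.86 in Yap+/-, a difference of 0.015. Values of Apoa1 and Apoa2 lie near the upper end of the table, 15.2. Whether the brightest probe sets, those of Apoa1, Apoa2, Apoe and Apob among them, were saturated could not be checked from these values, and saturation would make their differences too small. Of the 41 genes with a mean of 14 or more, the differences ran only from -0.14 to 0.074.

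The lesser HDL proteins went in opposite directions by small amounts. Apom, the lipocalin that carries sphingosine-1-phosphate on HDL, read 13.31 in Yap+/+ and 13.41 in Yap+/-, 1.08-fold higher in Yap+/-. Its other probe set read 12.79 and 12.89, so both gave nearly the same difference, 0.10 and 0.11. Of the 156 genes with a mean from 13 to below 14, 48 differed by more than Apom. Apof, a regulator of lipid transfer between particles, read 13.76 in Yap+/+ and 13.72 in Yap+/-, a difference of -0.037 that 102 of the same 156 genes exceeded.

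Of the pair that makes VLDL, Apob read nearly alike on its bright probe set, and the value of Mttp depended on the probe set. Apob, the core protein of VLDL, read 14.07 in Yap+/+ and 14.12 in Yap+/-, a difference of 0.047. Quantile normalising the deposited columns again made this difference 0. Its other probe set was far dimmer, at 7.58 in Yap+/+ and 7.45 in Yap+/-, and gave -0.13. On the brighter probe set, Mttp was at 11.08 in Yap+/+ and at 11.11 in Yap+/-, a difference of 0.027. On the dimmer one it was at 10.12 in Yap+/+ and at 9.82 in Yap+/-, 1.24-fold lower in Yap+/-, the only one of the 17 probe sets past 1.2-fold. Both Mttp probe sets are annotated to the same sequence record, and they disagreed by 0.33. Over 3406 genes with at least 2 measured probe sets, the robust SD of the disagreement between the brightest pair was 0.17, and 9.34% disagreed by at least as much as those of Mttp. Where both probe sets had a mean of at least 9.5, a limit also chosen after the values were seen, only 14 of 568 genes did. No direction is given for Mttp for this reason.

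Apoa4 and Apoa5, which act on triglyceride-rich particles, gave the largest differences of the 10 genes, in opposite directions. Apoa4 encodes a protein of chylomicrons and HDL whose transcript in mouse liver is known to follow fasting and hepatic fat. On its brighter probe set the value was 11.12 in Yap+/+ and 11.31 in Yap+/-, and on the other it was 9.98 and 10.21. Both probe sets were higher in Yap+/-, by 1.15-fold and 1.17-fold. Among the 1261 genes with a mean from 10 to below 12, 196 differed by more than Apoa4. Apoa5, which promotes the breakdown of triglyceride by lipoprotein lipase, read 13.39 in Yap+/+ and 13.17 in Yap+/-, 1.16-fold lower in Yap+/-. It has only 1 probe set, so nothing on the array checks this value. Of the 156 genes in its range of brightness, 9 differed by more. Over all measured genes, 20.9% differed by more than Apoa4 and 17.5% by more than Apoa5, a share that sets them beside dimmer genes with a wider spread.

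**Figure D2:**
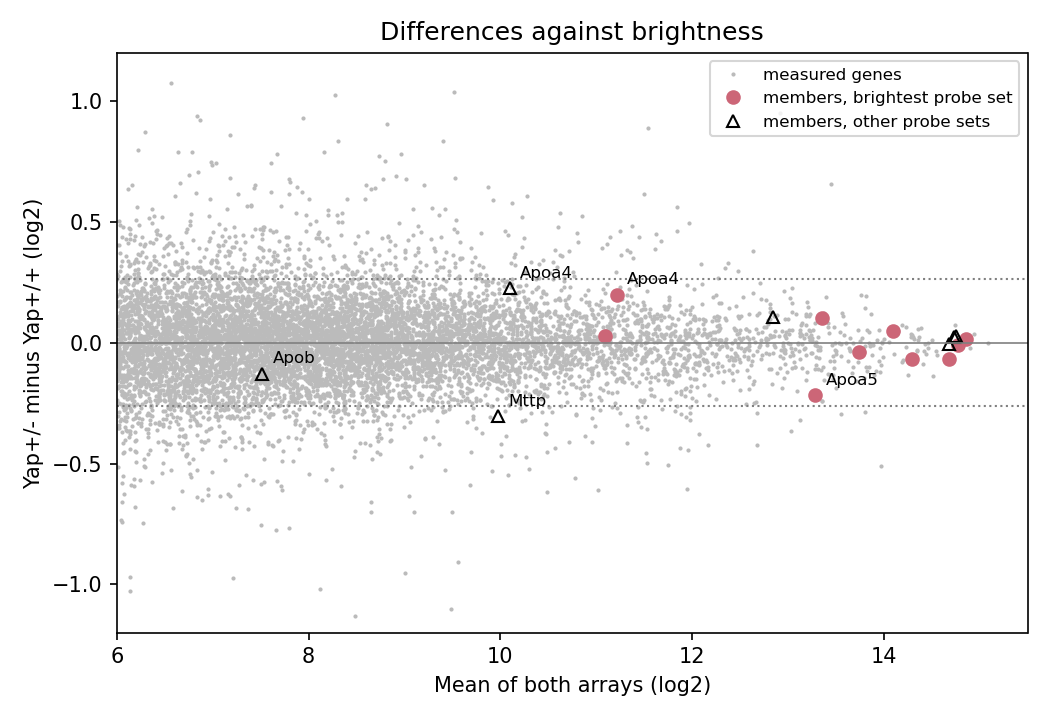
Difference Yap+/- minus Yap+/+ (log2, vertical axis) against the mean of both arrays (log2, horizontal axis) for measured genes (grey points; 23 lie outside the plotted range), the 10 members (red circles) and their other probe sets (open triangles), with dotted lines at 1.2-fold. All red circles lie between the dotted lines, the grey points narrow towards the right, and 1 triangle, of Mttp, lies below the lower line.

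Apoc1 and Apoe, which exchange between particles, were both slightly lower in Yap+/-. Apoc1, which slows lipolysis and particle uptake, read 14.32 in Yap+/+ and 14.26 in Yap+/-, a difference of -0.066. Apoe, the ligand by which the liver takes up remnant particles, read 14.72 in Yap+/+ and 14.65 in Yap+/-, a difference of -0.069. These are 1.05-fold each, and of the 41 genes as bright, 9 differed by more than Apoc1 and 7 by more than Apoe. Macrophages also make Apoe. All 13 Kupffer cell and macrophage markers were higher in Yap+/-, with a median of 0.26 and a summed linear signal of 10763 in Yap+/+ and 13413.5 in Yap+/-. Their part in the value of Apoe was not tested. In bulk liver, fewer cells of a type and less RNA per cell cannot be told apart.

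Neighbouring genes were also set side by side. In the cluster on chromosome 9, in order, the differences were -0.010 for Apoa1, -0.050 for Apoc3, which encodes an inhibitor of lipoprotein lipase, 0.20 for Apoa4 and -0.22 for Apoa5. Adjacent Apoa4 and Apoa5 thus had the highest and the lowest value of the cluster, a range of 0.42. In the cluster on chromosome 7 the differences were 0.019 for Apoc2, the activator of lipoprotein lipase, 0.051 for Apoc4, -0.066 for Apoc1 and -0.069 for Apoe, a range of 0.12. The difference between the clusters was not tested.

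**Figure D3:**
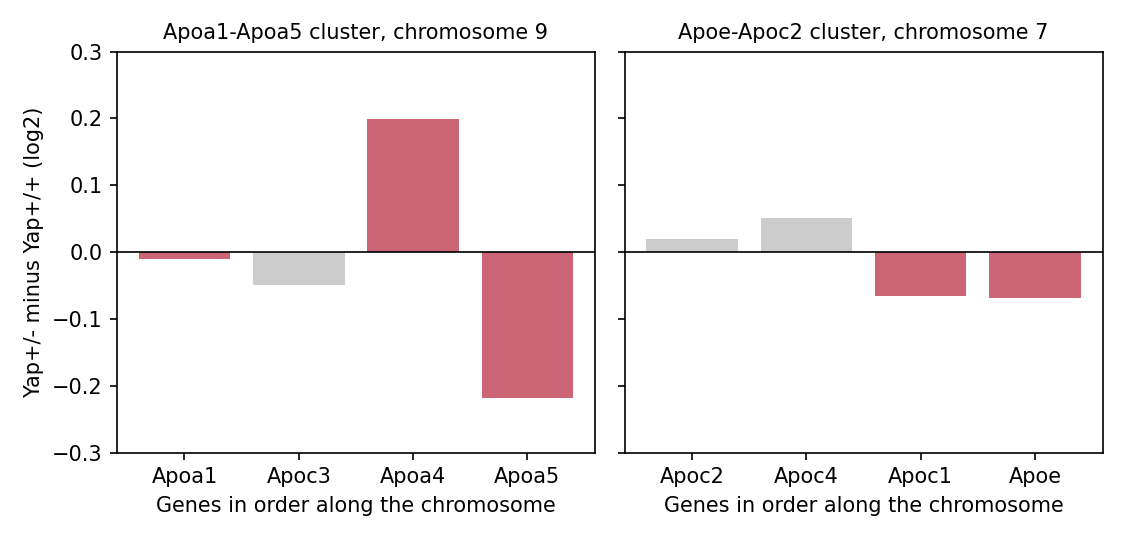
Difference Yap+/- minus Yap+/+ (log2, vertical axis) of the genes of both apolipoprotein clusters in their order along the chromosome, from 1 array per genotype, with members in red and other genes in grey. Apoa4 at 0.20 and Apoa5 at -0.22 stand on opposite sides of 0, and the bars of the chromosome 7 cluster stay within 0.07 of 0.

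Genes that work with the members were taken from lists, of which 37 genes are named by rule. Of these, 20 have another measured probe set, and in 12 at least 1 such probe set gave the other sign. For these 12, Arfrp1, Ces1d, Dgat2, Hspg2, Lrpap1, Nr2f2, Pltp, Saa4, Sort1, Surf4, Tmem41b and Vldlr, the values and the counts of higher and lower genes below use the brightest probe set alone, and the sign depends on the probe set. In the other 8, among them Lpl, Scarb1, Cd36, Foxo1, Ppargc1a and Nr5a2, all measured probe sets gave 1 sign.

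The other apolipoproteins and HDL enzymes also lay close to 0. Of 14 listed, 12 were matched and 10 measured, of which 3 were higher, 6 lower and 0 past 1.2-fold, with a median of -0.030. Of all measured genes 11.5% passed 1.2-fold, and 3.05% of those with a mean of at least 13. A count of 0 of 10 does not set this list apart from these shares. The lowest was Apool, which despite its name encodes a protein of the mitochondrial inner membrane, at -0.16. Pon1 and Pon3, the paraoxonases that ride on HDL, gave -0.059 and -0.040. The highest was Saa4, the constitutive serum amyloid A of HDL, at 0.057. Clu, clusterin, chosen here after its value was seen, read 13.8 on both arrays.

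Genes of the machinery that assembles and secretes apoB particles had a median close to 0. Of 28 listed genes 22 were measured, with 12 higher, 10 lower, 0 past 2-fold (0.323% of all measured genes) and a median of 0.019. This median was -0.0085 when all probe sets of a gene were averaged. Ces1d, a lipase that supplies stored triglyceride to VLDL, read 12.14 in Yap+/+ and 11.82 in Yap+/- and was the only one past 1.2-fold, with a difference of -0.32, where 5.45% of measured genes were at least 1.2-fold lower. Its 2 other probe sets gave -0.12 and 0.014. Arfrp1, a small GTPase of the Golgi, gave -0.22, the sorting receptor Sort1 -0.11 and the cargo receptor Surf4 -0.072. On their brightest probe sets, Tmem41b, a lipid scramblase of the endoplasmic reticulum, gave 0.18, the coat protein Sec23a 0.082, the fatty acid binding protein Fabp1 0.073 and the triglyceride-forming enzyme Dgat2 0.059.

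Genes of HDL assembly and remodelling had a median of 0.11, with 7 of 11 measured genes higher, 4 lower and 0 past 2-fold (0.323% of all measured genes). Lpl, lipoprotein lipase, read 11.40 in Yap+/+ and 11.85 in Yap+/-, 1.37-fold higher, where 6.02% of measured genes were at least 1.2-fold higher. Its other probe set read 8.64 and 9.00, a difference of 0.37. The HDL receptor Scarb1 was 1.17-fold higher, with differences of 0.13 and 0.15 on its other probe sets, and the sterol exporter Abcg1 was 1.10-fold higher. Pltp, the phospholipid transfer protein, gave 0.24 and, on a dim probe set, -0.24. Lcat, which esterifies cholesterol on HDL, gave -0.059, Pcolce2 -0.077 and the lipase Lipg -0.016. Macrophages express several genes of this list, Lpl, Pltp and Abcg1 among them, and the macrophage markers given above were higher in the same pool. Their part in these values was not tested. The median was 0.0028 when all probe sets of a gene were averaged and 0.0025 with probe sets that have no suffix for shared targets, so it rests on the choice of probe set.

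Receptors and uptake genes had 7 of 11 measured genes higher, 4 lower and 0 past 2-fold (0.323% of all measured genes). Their median was 0.092, which was 0.012 under either of the same probe set choices. Besides Scarb1, which both lists hold, the highest were Stab1, a scavenger receptor of sinusoidal endothelium and macrophages, at 0.21, Vldlr at 0.19 and Mylip, a ubiquitin ligase, at 0.15. Cd36, the fatty acid transporter, was the lowest at -0.70 and the only one past 1.2-fold, where 5.45% of measured genes were at least 1.2-fold lower. Its 2 other probe sets gave -0.87 and -0.64. The next lowest, the matrix proteoglycan Hspg2 and the receptor chaperone Lrpap1, gave -0.10 and -0.076, and the heparan sulphate proteoglycan Sdc1 gave -0.0046. Of 5 sinusoidal endothelial markers measured, 4 were higher in Yap+/-, with a summed linear signal over all 6 of 3938 in Yap+/+ and 4658 in Yap+/-, and their part in the value of Stab1 was not tested.

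Factors known to act on apolipoprotein promoters ranged from -0.47 to 0.84. Whether this range differs from that of the members was not tested. Most members are brighter than any of these factors, and brighter genes spread less. Of 25 measured factors, 13 lay above 0 and 12 below, and the median was 0.047. At 1.2-fold, 6 were higher, where 6.02% of measured genes were, and 2 lower, where 5.45% were. At 2-fold the count was 0, where 0.323% of measured genes passed. Nr0b2, the repressor SHP, gave 0.84, Foxo1, an insulin-restrained activator of Mttp and Apoc3, 0.65, the co-activator Ppargc1a 0.50 and Foxa3 0.47. Nr2f2, a nuclear receptor known to repress several apolipoprotein promoters, read 9.40 in Yap+/+ and 8.94 in Yap+/-, a difference of -0.47, while its 2 other measured probe sets gave 0.066 and -0.021. Prox1, a co-repressor of HNF4, gave -0.35, Srebf1, a regulator of fat synthesis, -0.21, and Nr5a2, an activator of Apoa1, -0.14. On its second brightest probe set Nr5a2 was at 9.29 in Yap+/+ and at 8.28 in Yap+/-, a difference of -1.01, and the third gave -0.17. Hnf4a, the nuclear receptor that drives most of these promoters, and the fasting regulators Ppara and Creb3l3, named after their values were seen, gave 0.20, 0.12 and 0.12. The other measured Hnf4a probe sets gave 0.35 and -0.28.

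**Figure D4:**
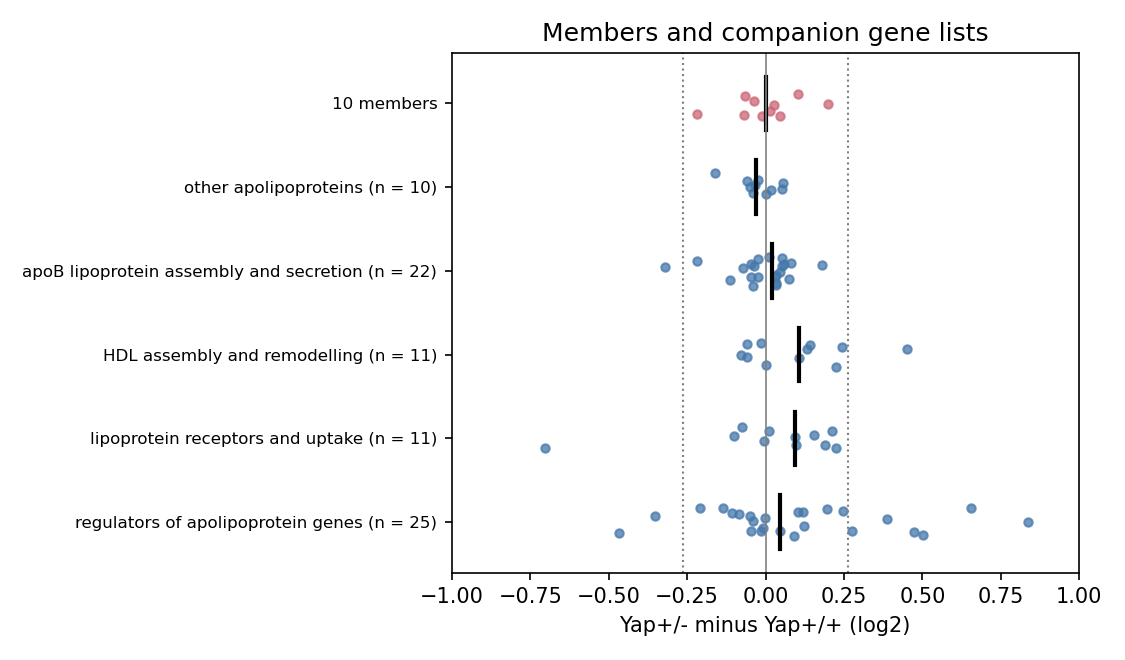
Difference Yap+/- minus Yap+/+ (log2, horizontal axis) of the 10 members (red) and of the measured genes of the companion lists (blue), 1 point per gene from 1 array per genotype, with a black bar at each median and dotted lines at 1.2-fold; the vertical scatter within a row has no meaning. Points of the members lie between -0.22 and 0.20, and those of the regulators between -0.47 and 0.84. These ranges are not on an equal basis. The rows differ in number of genes, 8 members have a mean of at least 13, no regulator reads above 12.35, and brighter genes spread less.

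Intestinal epithelium also makes Apoa4, Apoa1, Apob and Mttp, so its markers were read as a check of the tissue. Fabp2, which mouse liver also expresses, read 10.53 in Yap+/+ and 10.91 in Yap+/-, and Lgals4 read 7.65 and 7.46. The 7 other matched markers, villin and the Cdx factors among them, lay between 3.30 and 4.92 on both arrays, where the median of all probe sets was 4.93 in Yap+/+ and 4.92 in Yap+/-. Markers of bile duct and exocrine pancreas were less alike. Krt19 read 6.73 in Yap+/+ and 4.83 in Yap+/-, and Ctrb1 6.41 and 5.13, each with a mean below 6. The other matched markers of those tissues differed by at most 0.26 in either direction.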

How the data were processed

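Liver RNA of 2 samples was analysed, 1 pool of 5 livers per genotype, each on 1 array. The authors deposited log2 probe set values, made with RMA and Partek 6.5 per the submitters' processing notes, with settings not given in the sources used here. RMA includes background correction, quantile normalisation and a summary over probes. The sorted columns differed by at most 0.047. With 1 array per genotype, the number of arrays limits the precision.

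Probe sets with exactly 1 symbol in the platform annotation were used, and a gene was represented by its brightest. Differences are log2 values of Yap+/- minus Yap+/+, and genes with a mean of at least 6 were counted at 2-fold. A robust SD is the scaled median absolute deviation. Members and lists were chosen with earlier results of these data known. Named are all members and, per list, up to 4 measured genes with the largest difference in each direction, besides those said to be chosen otherwise. List genes without a match were not analysed here. Counting was tested on simulated data, with planted differences above the 2-fold threshold and noise below the spread over measured genes. This checks the code and says nothing of differences as small as those of the members. Alternatives were other probe set choices, scalings, an added constant, minimum means and thresholds. The work was done in Python 3.11.15 with pandas 2.3.3, numpy 2.4.6, matplotlib 3.10.9 and statsmodels 0.14.6.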

Additional observations from a re-analysis of the deposited data

How the results depend on the processing

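Of 192 values computed under alternatives, 183 stayed within the spread between genes on these arrays (0.15) or within 1.5 times the count. That limit is wide here, since 8 of the 10 members differed by less than 0.12. A value could therefore change sign and still stay within it. Centring on the median of measured genes subtracted 0, so it could move no value. Adding a constant to both arrays cannot change the sign of a probe set's difference. The count of members past 2-fold was 0 under every alternative. With a largest main difference of 0.22, these settings could hardly have changed that count, so it says little about stability. Counts of 0 at 2-fold, of members and of lists, are among the 183. At 1.5-fold and 1.2-fold the count of members was also 0, which repeats the counts given above. The median member difference ran from -0.039 to 0.020. Apoa4 (0.19 to 0.23), Apom (0.10 to 0.12) and Apoa5 (-0.22 to -0.20) kept their direction under all 6 alternatives run on single members. Apoc1, Apoe and Apof did not change sign either. Apoa2 never fell below 0, but its difference became 0 when the columns were quantile normalised again. For genes with 1 probe set, Apoa5 among them, the probe set choices could not change the value. All alternatives reuse the same arrays, so they do not replace replicates. When all probe sets of a gene were averaged, Apob gave -0.040, Mttp -0.14 and Apoa1 0.0095, each on the other side of 0 from its brightest probe set. Of the 77 measured genes of the 5 companion lists, 0 were past 2-fold (0.323% of all measured genes), 3 past 1.5-fold (1.34%) and 11 past 1.2-fold (11.5%). No paired analysis was possible because each genotype has 1 array, and for the same reason no array could be left out.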
